A study of Mus musculus with 6 samples.

Results

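The Kelch-like adaptors of cullin-3 ubiquitin ligases were followed in mouse soleus as the genes whose array feature carried exactly 1 symbol made of Klhl or Kbtbd and a number. The rule gave 44 genes on 45 features, out of 30142 genes with 1 symbol on the array, and for Klhl38, which had 2 features, the one with the higher mean over the 6 arrays was used. The features of Klhl15 and Klhl17 each listed 3 symbols and were left out. The soleus is a calf muscle with many slow fibres, and it was taken from both legs of male mice aged 39 to 41 weeks and profiled on Affymetrix whole-transcript arrays from 100 ng of total RNA. There were 3 cKO mice, which carried DMP1 Cre and the knockout of Mbtps1, and 3 Control mice, littermates labelled wild type, each with 1 array. Dmp1 regulatory sequence drives Cre mainly in osteocytes, the cells embedded in bone. Such Cre lines have also been reported to recombine in some muscle fibres, and deletion in the soleus itself was not tested. Values are log2 signals, on which a difference of 1 is a fold of 2. All differences are cKO minus Control. With 3 arrays a group, precision is limited by their number.

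Kelch-like proteins carry a BTB domain that binds the ligase scaffold cullin-3 and a Kelch repeat domain that binds a substrate, so each member directs the ligase to its own targets. Several members are known for a role in striated muscle. Variants in KLHL40, KLHL41 and KBTBD13 cause nemaline myopathy in people, in which rods of protein build up in the fibres. Klhl40 and Klhl41 also act as stabilisers of sarcomere proteins such as nebulin and leiomodin-3. The 9 members known as rich in striated muscle were taken as Klhl30, Klhl31, Klhl33, Klhl34, Klhl38, Klhl40, Klhl41, Kbtbd12 and Kbtbd13, and the other 35 were set beside them.

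The start regions of 4 muscle members are shown because they are the nemaline myopathy members and the muscle member besides Klhl40 whose groups did not overlap. The sequences are RefSeq's on GRCm38.p6, 300 bases each with 250 before the gene's start and 50 after it, 5′ to 3′. Capitals mark CAGCTG, an E-box form that MyoD-family factors are known to bind, and a loose MEF2-type pattern. This pattern is CTA and TAG with any 4 bases between them, which is wider than known MEF2 sites, where those 4 are A or T.
Klhl40 (chr9:121777357-121777656, plus strand): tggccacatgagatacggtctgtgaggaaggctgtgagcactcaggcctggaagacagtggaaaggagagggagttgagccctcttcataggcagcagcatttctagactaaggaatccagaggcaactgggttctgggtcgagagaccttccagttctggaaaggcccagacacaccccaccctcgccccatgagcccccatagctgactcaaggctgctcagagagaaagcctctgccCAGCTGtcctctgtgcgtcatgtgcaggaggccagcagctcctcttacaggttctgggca
Klhl34 (chrX:157818185-157818484, plus strand): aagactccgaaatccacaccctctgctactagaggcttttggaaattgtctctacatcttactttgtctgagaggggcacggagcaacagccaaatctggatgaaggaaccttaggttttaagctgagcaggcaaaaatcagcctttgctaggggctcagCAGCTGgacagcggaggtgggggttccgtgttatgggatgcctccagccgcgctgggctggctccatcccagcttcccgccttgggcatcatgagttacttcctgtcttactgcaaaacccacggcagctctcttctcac
Klhl41 (chr2:69669870-69670169, plus strand): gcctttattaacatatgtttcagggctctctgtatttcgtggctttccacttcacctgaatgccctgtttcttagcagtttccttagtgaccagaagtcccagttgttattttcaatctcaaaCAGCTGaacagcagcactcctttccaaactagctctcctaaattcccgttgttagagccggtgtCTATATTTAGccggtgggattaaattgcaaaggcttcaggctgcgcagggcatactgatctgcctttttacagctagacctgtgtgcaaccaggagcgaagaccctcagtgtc
Kbtbd13 (chr9:65391603-65391902, minus strand): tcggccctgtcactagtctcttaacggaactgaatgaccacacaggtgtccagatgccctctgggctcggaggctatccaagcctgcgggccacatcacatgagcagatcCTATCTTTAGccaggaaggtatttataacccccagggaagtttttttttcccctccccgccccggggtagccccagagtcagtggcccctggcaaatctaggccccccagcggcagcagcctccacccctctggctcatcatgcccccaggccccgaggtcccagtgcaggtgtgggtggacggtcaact
CAGCTG began 10 bases before the start in Klhl40, 90 before it in Klhl34 and 127 before it in Klhl41. The MEF2-type pattern read CTATATTTAG in Klhl41, starting 63 bases upstream. In Kbtbd13 it read CTATCTTTAG, with a C among the 4 middle bases, starting 140 bases upstream. Of the 44 members, 36 had a start region in the table, 7 of them muscle members. The loose MEF2-type pattern lay in 4 of the 7 muscle members (Klhl41, Klhl33, Kbtbd12 and Kbtbd13) and in 0 of the other 29. It lay in 4.23% of all 27025 genes with a start region, again with any 4 middle bases. CAGCTG lay in 3 of the 7 and in 7 of the other 29, against 18.3% of all genes. CACGTG, the E-box form that CLOCK and BMAL1 are known to bind, lay in Klhl20, Klhl22 and Klhl28, and in 8.09% of all genes. All 3 motifs read the same on both strands and no 2 matches overlapped in the printed regions. A match is a run of letters and not a measured binding site.

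In soleus the family as a whole lay close to the rest of the array in its difference between cKO and Control. Klhl40 was higher on every cKO array, by 0.99 log2 units, and so were Klhl34 (0.47) and Klhl18 (0.35). Klhl23 was lower on every cKO array, by 0.99. Klhl41, the close relative of Klhl40, differed by -0.02. Of the 44 members, 38 lay above their array's median on at least 3 arrays and were tested, and 0 passed an adjusted p of 0.05 (limma, Benjamini-Hochberg over 33334 features, each member's adjusted p = 0.999). The background was 0% of all features at that threshold. At an unadjusted limma p under 0.05 there were 2 members higher and 1 lower, 3 of 38, against 4.50% of all features tested (3.70% higher and 0.807% lower). Groups did not overlap for 3 members that were higher and 1 that was lower, against 8.95% and 2.05% of all features. With 3 of 38 members, a share this near the background is not a result about the family. The median difference over the tested members was 0.03 log2 units, with 23 higher (60.5%) and 15 lower, beside a median of 0.07 and 65.8% higher over all features.

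**Figure D1:**
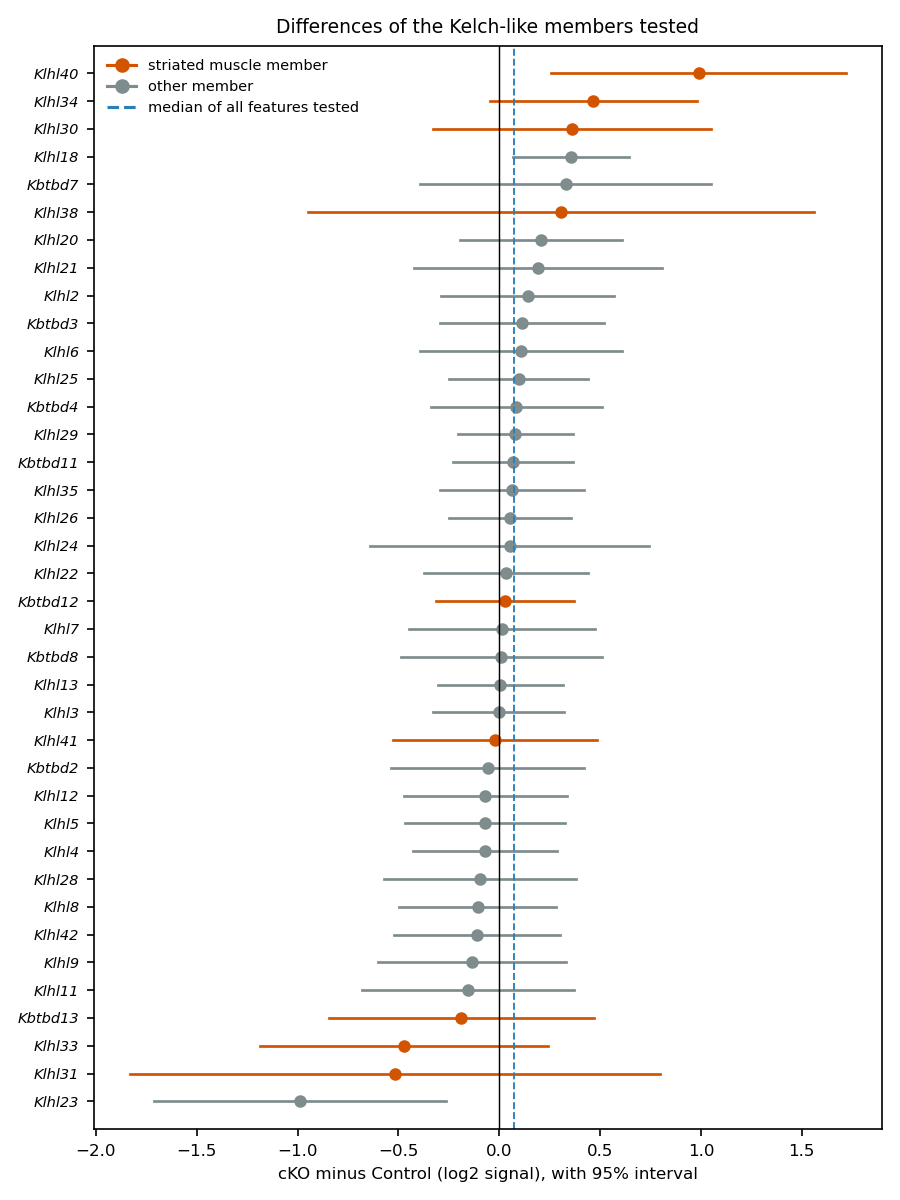
Difference between cKO and Control in log2 signal (points) with limma's 95% interval (lines) for the 38 members tested, in order of size. Klhl40 at 0.99 and Klhl18 at 0.35 have intervals wholly above 0, and Klhl23 at -0.99 has one wholly below 0.

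The arrays fell into 2 ranges of mouse numbers, with cKO 1 (mouse 733) beside Control 1 and 2 (715 and 716) in the low range, and cKO 2 and 3 (779 and 780) beside Control 3 (776) in the high one. The labels do not say what a range stands for, so differences are also given within each. The array of cKO 1 had the highest median signal, 4.37, against 4.004 to 4.13 on the other arrays. The difference over all features was 0.26 at the median within the low range and -0.04 within the high one. Mbtps1, which encodes site-1 protease, stood at 7.77, 7.44 and 7.11 in cKO mice and at 7.39, 7.05 and 7.24 in Control mice, and the arrays do not say which part of the gene the feature covers, so it does not check the labels. Markers of muscle fibres fitted the tissue label, with all 18 listed genes tested, 5 of them within 0.5 log2 units of the array's highest value on every array, and list means of 17.26 to 17.57 in cKO and 17.19 to 17.39 in Control. Of 8 bone and osteocyte markers, 2 (Alpl and Bglap) passed the filter, and Dmp1, Sost, Phex, Mepe, Fgf23 and Ibsp did not. Tendon markers were higher on balance in cKO, with list means of 6.65 to 6.71 in cKO and 5.41 to 6.18 in Control. Of 12 markers, 10 were tested and all 10 were higher. At an unadjusted limma p under 0.05, 6 of them were higher, against 3.70% of all features. Mkx and Cilp2 were below the filter. The list mean of adipocyte markers separated the groups as well, at 6.61 to 7.01 in cKO and 6.47 to 6.55 in Control. Of 8 markers 7 were tested, with 5 higher and 2 lower, Fabp4 (-0.06) and Retn (-0.14). At an unadjusted limma p under 0.05, 3 of the 5 (Plin1, Cidec and Lipe) were higher, against the same 3.70%. List means of fibroblast, macrophage, endothelial, smooth muscle and pericyte, satellite cell and Schwann cell markers overlapped between the groups. In whole muscle, a change in the share of a cell type cannot be told apart from a change in RNA per cell.

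Among the nemaline myopathy members, Klhl40, which stabilises leiomodin-3 and nebulin, stood at 12.20, 11.48 and 11.64 in cKO 1 to 3 and at 10.29, 10.95 and 11.11 in Control 1 to 3. All cKO arrays lay above all Control arrays, with the highest value in cKO 1 and the lowest in Control 1. The difference was 0.99 log2 units (SE 0.31, 95% interval 0.26 to 1.72), a fold of 1.98, with a limma adjusted p of 0.999. The low range of mouse numbers gave 1.58 and the high range 0.45, higher in both. Without each array in turn it ran from 0.74 to 1.15, each time at an unadjusted limma p under 0.05. The tendon and adipocyte list means, given above, also separated the groups, and their part in the Klhl40 difference was not tested.

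Klhl41, which supports nebulin and the assembly of sarcomeres, stood at 17.88, 17.78 and 17.91 in cKO mice and at 17.66, 17.71 and 18.27 in Control mice. The groups overlapped, and the top value belonged to Control 3. The difference of -0.02 had a 95% interval of -0.53 to 0.48, so a difference of either sign within those bounds is not told apart from none. The Klhl41 feature lay 1.65 to 2.17 log2 units under the highest value of its array and was not at the ceiling. Kbtbd13, a cullin-3 adaptor of a nemaline myopathy with slow muscle relaxation, stood at 7.94, 7.69 and 7.06 in cKO mice and at 7.43, 7.90 and 7.93 in Control mice. Its groups overlapped too, with cKO 3 lowest and cKO 1 highest. The difference was -0.19 (SE 0.28, 95% interval -0.85 to 0.47), with 0.28 within the low numbers and -0.56 within the high ones.

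**Figure D2:**
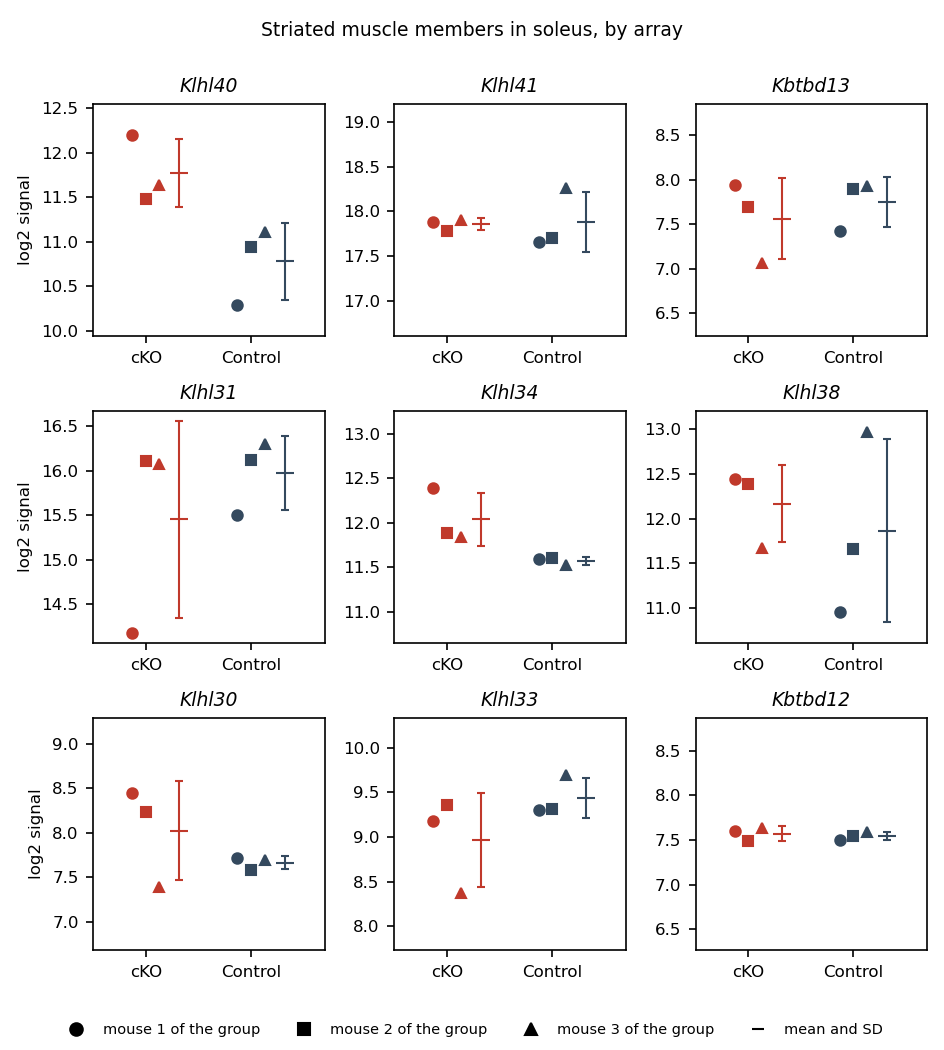
Log2 signal of the 9 striated muscle members on each array (markers, 3 cKO and 3 Control), with the mean and SD of each group at its right. Every panel spans the same 2.6 log2 units, and Klhl40 and Klhl34 are the panels whose groups do not overlap.

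Klhl31, whose loss in mice causes a myopathy and which is known to limit filamin-C, had the widest range of the 9. It stood at 14.18, 16.11 and 16.07 in cKO mice and at 15.51, 16.11 and 16.29 in Control mice. One array, cKO 1, was far below the other 5. The difference was -0.52 (SE 0.55, 95% interval -1.83 to 0.80) over all arrays and 0.12 without cKO 1. Within the low numbers it was -1.63 and within the high ones -0.20.

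Klhl34 stood at 12.38, 11.88 and 11.85 in cKO mice and at 11.60, 11.60 and 11.52 in Control mice. Its Control arrays lay close together (SD 0.045) and below all cKO arrays, and cKO 1 was again the highest. The difference was 0.47 (SE 0.21, 95% interval -0.05 to 0.98), with 0.79 within the low numbers, 0.34 within the high ones and 0.29 without cKO 1. Its unadjusted limma p was under 0.05 in 2 of 17 alternatives, a block on mouse-number range (where the difference was 0.57) and eBayes with no intensity trend. Klhl30 stood at 8.45, 8.23 and 7.39 in cKO mice and at 7.72, 7.58 and 7.70 in Control mice. The cKO 1 and cKO 2 arrays were above the Control arrays and cKO 3 was below them, for a difference of 0.36 (SE 0.29). Without cKO 3 that difference was 0.68, at an unadjusted limma p under 0.05, reached there by 2.89% of all features. Both genes are known mainly for their expression in muscle.

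Klhl38 varied more within the Control group than between the groups. It stood at 12.44, 12.39 and 11.67 in cKO mice and at 10.96, 11.66 and 12.97 in Control mice. Both the lowest and the highest value were Control arrays. The difference of 0.31 (SE 0.52, 95% interval -0.95 to 1.56) was 1.14 within the low numbers and -0.95 within the high ones. It was 0.86 without Control 3, at an unadjusted limma p under 0.05 (reached there by 9.43% of all features), and -0.15 without Control 1. The second Klhl38 feature stood at 4.45 to 5.07 in cKO mice and at 4.83 to 5.02 in Control mice and differed by -0.13 (SE 0.18), a sign opposite to that of the first.

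Klhl33 stood at 9.18, 9.36 and 8.37 in cKO mice and at 9.31, 9.32 and 9.70 in Control mice. The cKO 3 array was lowest and Control 3 highest, with overlap at cKO 2. The difference was -0.47 (SE 0.30, 95% interval -1.19 to 0.24), lower within the low numbers (-0.13) and within the high ones (-0.84). Kbtbd12 was the steadiest of the 9, at 7.60, 7.48 and 7.64 in cKO mice and 7.50, 7.55 and 7.59 in Control mice. Its whole range over 6 arrays was 0.15 log2 units and its difference was 0.03 (SE 0.14, 95% interval -0.31 to 0.37).

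The median difference was 0.03 log2 units for the muscle members and 0.03 for the other members. The 2 medians parted in other settings: they were 0.12 and -0.08 without cKO 1, -0.13 and 0.03 without Control 1, 0.17 and 0.06 without Control 3, and 0.20 and -0.04 with array weights. Differences ran from -0.52 to 0.99 in the muscle members and from -0.99 to 0.35 in the others. All 9 muscle members were tested, with 5 higher and 4 lower, and 29 of the other 35 were tested, with 18 higher and 11 lower. The median absolute difference was 0.36 log2 units for the muscle members, 0.08 for the others and 0.15 over all features tested. The median range over the 6 arrays was 1.06 for the muscle members, 0.48 for the others and 0.68 over all features. Signal level differed between the sets, since the mean signals of muscle members ran from 7.56 to 17.87 and those of the tested others from 4.28 to 14.76. At mean signals of 7 and above, a level set after the values were seen, the 10 other members had a median absolute difference of 0.09 and a median range of 0.55, and 10578 features had 0.22 and 0.86. These are descriptions, since members are not replicates of a condition. The muscle members did not share one order over the arrays. Of the 9, cKO 1 was the highest array for 4 (Klhl30, Klhl34, Klhl40 and Kbtbd13), Control 3 for 4 (Klhl31, Klhl33, Klhl38 and Klhl41) and cKO 3 for 1 (Kbtbd12).

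**Figure D3:**
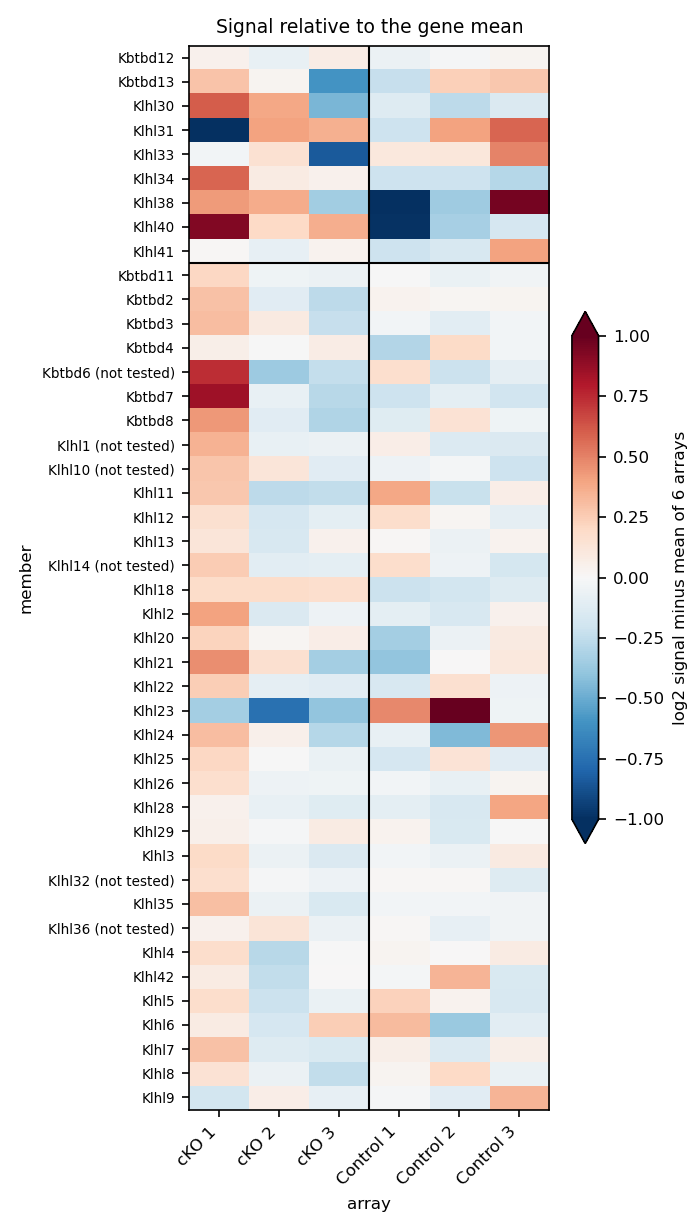
Log2 signal of all 44 members on each array relative to the gene's mean over the 6 arrays (colour, capped at 1 in either direction), with the 9 striated muscle members above the horizontal line. The cKO 1 column is the reddest among the other members, and the muscle members show no shared pattern.

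Outside the muscle set, 2 members had an unadjusted limma p under 0.05. Klhl23 stood at 8.53, 8.12 and 8.48 in cKO mice and at 9.35, 9.92 and 8.83 in Control mice. Every cKO array was below every Control array, and the nearest pair was cKO 1 and Control 3. The difference was -0.99 (SE 0.30, 95% interval -1.71 to -0.27, limma adjusted p = 0.999), so the cKO signal was 0.503 of the Control signal. It was -1.11 within the low numbers and -0.53 within the high ones, and ran from -1.26 to -0.71 without each array in turn. Without cKO 2 its unadjusted limma p was no longer under 0.05. Klhl23 lies on chromosome 2 with 4 protein-coding genes between it and Klhl41, whose difference was -0.02. The gene before it, Phospho2, a phosphatase gene chosen here for its position, stood at 8.16, 7.85 and 7.97 in cKO mice and at 8.25, 8.56 and 7.99 in Control mice, a difference of -0.27 (SE 0.20). Ssb, the gene after Klhl23, differed by -0.15 (SE 0.35), with 0.60 within the low numbers and -1.04 within the high ones. Of the genes beside Klhl40, Hhatl differed by 0.31 (SE 0.16) and Zfp651 by -0.14 (SE 0.17). All cKO arrays lay above all Control arrays for Hhatl, as for 8.95% of all features. Beside Klhl34, Smpx and Cnksr2 differed by 0.18 (SE 0.19) and 0.04 (SE 0.15), with overlapping groups. Ngp and Kif9, beside Klhl18, were below the filter.

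Klhl18, which in human cells activates the mitotic kinase Aurora A, stood at 6.32, 6.32 and 6.31 in cKO mice and at 5.92, 5.96 and 6.01 in Control mice. The arrays of each group lay close together, with SDs of 0.0063 in cKO and 0.043 in Control. The difference was 0.35 (SE 0.12, 95% interval 0.07 to 0.64, limma adjusted p = 0.999), a fold of 1.28. It was 0.38 within the low numbers and 0.31 within the high ones, the closest pair of values among the 14 members given in full. The unadjusted limma p was no longer under 0.05 in 8 of 17 alternatives: without cKO 2, cKO 3, Control 1 or Control 2, with the replicate block, after centring on array medians (0.30) and after quantile normalization alone (0.25) or with the range block (0.23).

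Other adaptors of cell division gave smaller values. Klhl21 and Klhl9, which with Klhl13 direct ubiquitination of the mitotic kinase Aurora B, differed by 0.19 (SE 0.26) and -0.14 (SE 0.19). Klhl21 stood at 8.19, 7.89 and 7.38 in cKO mice and at 7.33, 7.72 and 7.83 in Control mice, so cKO 1 was highest and Control 1 lowest with the groups interleaved. Klhl13 differed by 0.0049 (SE 0.13). Klhl22, an adaptor for the kinase PLK1 in human cells, differed by 0.03 (SE 0.17), and Klhl42, an adaptor for the microtubule-severing protein katanin, by -0.11 (SE 0.17). Klhl24, known for desmin and keratin-14 turnover in people, stood at 15.07, 14.80 and 14.47 in cKO mice and at 14.68, 14.31 and 15.20 in Control mice. Its difference was 0.05 (SE 0.29), with 0.57 within the low numbers and -0.56 within the high ones.

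**Figure D4:**
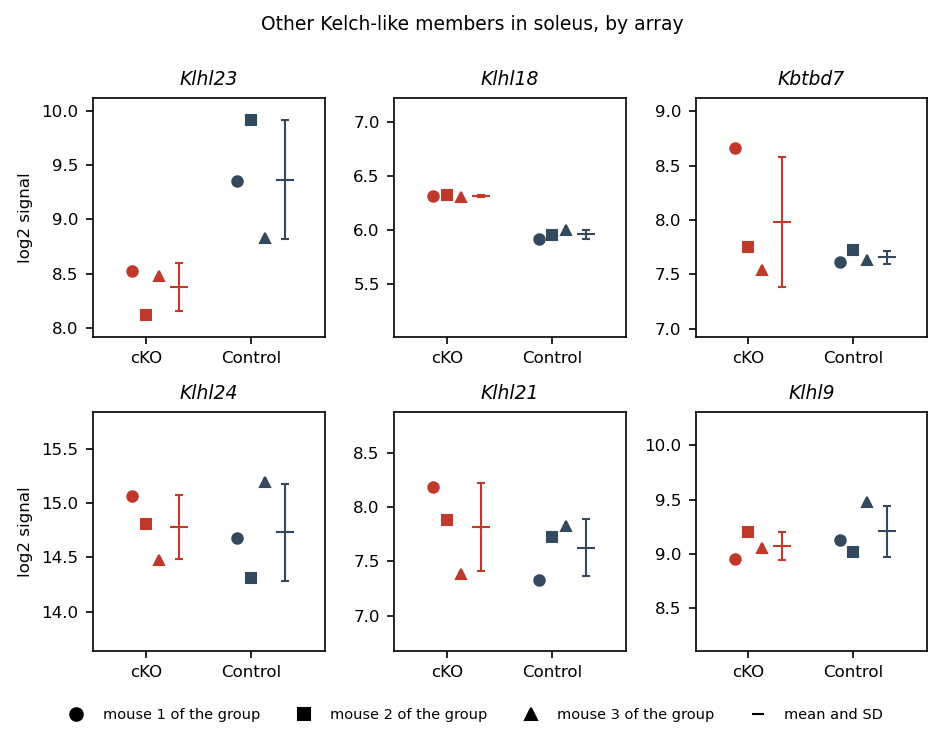
Log2 signal of 6 members outside the striated muscle list on each array (markers), with the mean and SD of each group at its right and panels of equal span. Klhl23 is lower and Klhl18 higher on all 3 cKO arrays, and the other 4 overlap.

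Kbtbd7, which with Kbtbd6 directs turnover of the Rac activator TIAM1 in human cells, stood at 8.66, 7.75 and 7.54 in cKO mice and at 7.61, 7.73 and 7.63 in Control mice. A single array, cKO 1, stood above the other 5, and the difference of 0.33 (SE 0.30) was -0.01 without it. Kbtbd6, the next gene on chromosome 14, was below the filter, at 4.37, 3.26 and 3.38 in cKO mice and 3.79, 3.41 and 3.54 in Control mice, with cKO 1 highest as for Kbtbd7. Adjacent members with no protein-coding gene between them were also found for Klhl10 and Klhl11 on chromosome 11 and for Klhl6 and Klhl24 on chromosome 16. Klhl6, known from B cells, differed by 0.11 (SE 0.21) beside 0.05 for Klhl24.

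Signals of the next 8 adaptors overlapped between the groups. Klhl2 and Klhl3, adaptors for WNK kinases, differed by 0.14 (SE 0.18) and -0.0036 (SE 0.14). Kbtbd2, which limits the p85-alpha subunit of PI3-kinase in insulin signalling, differed by -0.06 (SE 0.20, 95% interval -0.53 to 0.42) around signals of 8.92 to 9.47 in cKO mice and 9.20 to 9.22 in Control mice. Klhl25, an adaptor for the translation repressor 4E-BP1, differed by 0.10 (SE 0.14). Klhl12, which ubiquitinates the coat protein SEC31, differed by -0.07 (SE 0.17), and Klhl20, an adaptor for DAPK1 and PML in human cells, by 0.20 (SE 0.17, 95% interval -0.20 to 0.61), the largest of the 24 tested members not given in full. Kbtbd4 and Kbtbd8, the first a partner of the CoREST repressor complex and the second an adaptor for ribosome biogenesis factors in neural crest, differed by 0.08 (SE 0.18) and 0.01 (SE 0.21).

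The remaining tested members were Kbtbd3, Kbtbd11, Klhl4, Klhl5, Klhl7, Klhl8, Klhl11, Klhl26, Klhl28, Klhl29 and Klhl35. Klhl7, a gene of inherited retinal degeneration, differed by 0.01 (SE 0.19). Klhl11 differed by -0.16 (SE 0.22), the lowest value of the 24. It reached an unadjusted limma p under 0.05 only with array weights, where 12.8% of all features did. Over the 24 tested members not given in full, 14 were higher and 10 lower, between -0.16 and 0.20, with 0 at an unadjusted limma p under 0.05. The 6 members below the filter were Kbtbd6, Klhl1, Klhl10, Klhl14, Klhl32 and Klhl36, at 3.25 to 4.37. Klhl1 is known from neurons and Klhl10 from spermatids. No difference is given for these 6, since they did not lie above their array's median on at least 3 arrays.

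The cKO 1 array was the highest of the 6 for 20 of the 38 tested members, against 46.4% of all features tested. It was the lowest for 2, Klhl31 and Klhl9. Differences within the low and the high mouse numbers had the same sign for 14 of the 38 members, 10 higher and 4 lower, against 45.9% of all features. Among the muscle members this held for 5 of 9: Klhl30, Klhl34 and Klhl40 were higher in both ranges, and Klhl31 and Klhl33 lower in both. The median difference over tested members was 0.23 within the low numbers and -0.08 within the high ones, close to the array's 0.26 and -0.04. The part of the cKO 1 array in these values was not tested beyond leaving it out, which took the median of the other members to -0.08 and that of the muscle members to 0.12.

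**Figure D5:**
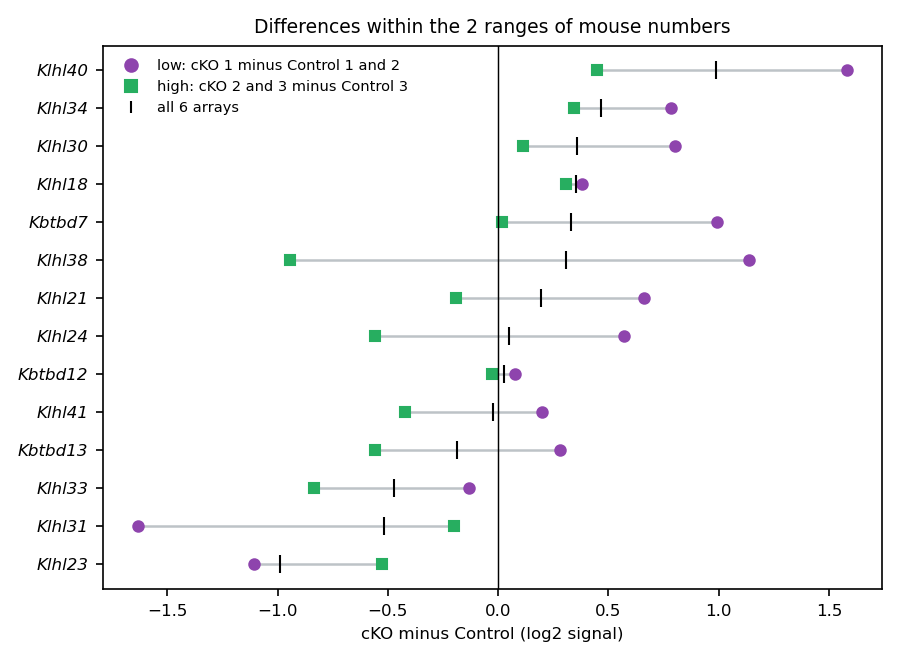
Difference between cKO and Control in log2 signal for the 14 members given in full, within the low mouse numbers (circles, cKO 1 minus the mean of Control 1 and 2), within the high ones (squares, mean of cKO 2 and 3 minus Control 3) and over all 6 arrays (ticks). Klhl40, Klhl34, Klhl30, Klhl18 and Kbtbd7 lie above 0 in both ranges, and Klhl33, Klhl31 and Klhl23 below 0 in both.

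The ligase that these adaptors serve was described from a list of 26 genes for cullin-3, its neddylation enzymes, the COP9 signalosome that removes NEDD8, and exchange factors, of which 24 were measured and tested. At an unadjusted limma p under 0.05 there were 0 of 24, against 4.50% of all features. Of the 24, 16 were higher and 8 lower, with a median difference of 0.08 beside 0.07 over all features. Cul3, the scaffold, stood at 15.84, 15.53 and 15.28 in cKO mice and at 15.64, 15.67 and 16.12 in Control mice, a difference of -0.26 (SE 0.23) with overlapping groups. Cand2, a muscle-rich exchange factor of cullin ligases, differed by 0.53 (SE 0.24), Gps1, the first subunit of the signalosome, by 0.42 (SE 0.18) and Cops4, another subunit, by -0.40 (SE 0.25). Of 25 other BTB adaptors 23 were tested, with a median difference of 0.10. At that p 0 were higher and 1 was lower, against 3.70% and 0.807% of all features. The one was Ipp, a Kelch protein that binds actin, at 8.38, 8.34 and 8.06 in cKO mice and 8.54, 8.78 and 8.88 in Control mice (-0.48, SE 0.18, limma adjusted p = 0.999). Ivns1abp, Ankfy1 and Abtb1 differed by -0.53 (SE 0.31), 0.31 (SE 0.16) and 0.28 (SE 0.22).

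Transcripts of known substrates and partners were tested for 23 of 27 listed genes, and 21 were higher and 2 lower. Their median difference was 0.15, beside 0.07 over all features, of which 65.8% were higher. In the low range of mouse numbers, which holds cKO 1, their median was 0.31, against 0.26 for all features. In the high range it was 0.05, against -0.04. Since earlier results were known when the list was drawn up, its count of higher genes is only a description. At an unadjusted limma p under 0.05, 3 of the 23 were higher and 0 lower, against 3.70% and 0.807% of all features. Flnc, encoding the Klhl31 target filamin-C, stood at 16.77, 16.56 and 16.66 in cKO mice and at 15.92, 15.68 and 16.18 in Control mice. All cKO arrays were above all Control arrays, for a difference of 0.74 (SE 0.20, limma adjusted p = 0.999). Nolc1, encoding a Kbtbd8 target, differed by 0.71 (SE 0.17) and Eif4ebp1, encoding the Klhl25 target 4E-BP1, by 0.59 (SE 0.20), both with separated groups, and Dvl3, Sec31a and Depdc5 differed by 0.65, 0.49 and 0.29 (SE 0.32, 0.21 and 0.14). Lmod3, encoding the Klhl40 client leiomodin-3, stood at 14.00, 13.56 and 13.30 in cKO mice and 13.37, 13.69 and 13.61 in Control mice, a difference of 0.06 (SE 0.24). Neb and Acta1 lay within 0.021 log2 units of the highest value on every array, so no fold is given for them. The 21 higher genes include Neb, and also Nrap, which lay 0.52 to 0.56 log2 units under the highest value. Signals this near the top may not show a difference, so the signs of Neb and Nrap carry little weight. The arrays measure RNA, and protein turnover, on which these adaptors act, was not measured.

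Of the 13 nemaline myopathy genes, Klhl40 and Mypn were higher at an unadjusted limma p under 0.05 and 0 were lower. Over all features tested, 3.70% were higher and 0.807% lower at that p. Klhl40 is also counted above as a family member, and so small a count is not a result about the list. Mypn, encoding the Z-disc protein myopalladin, stood at 14.93, 15.64 and 15.65 in cKO mice and at 14.15, 14.04 and 15.00 in Control mice, with Control 3 above cKO 1. Its difference was 1.01 (SE 0.34). Myo18b, Kbtbd13 and Tpm3 differed by 0.38 (SE 0.36), -0.19 (SE 0.28) and 0.17 (SE 0.26), and the median difference of the 13 was 0.05. That median includes Neb and Acta1, for which no fold is given. It also includes Tpm2 and Tnnt3, which lay within 0.29 and 0.16 log2 units of the highest value on every array. Signals this near the top may not show a difference.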

How the data were processed

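The authors deposited 1 table with a column per array for 6 soleus samples, taken to hold log2 signals because values ran from 1.92 to 19.93. The log base, background correction, summarisation and normalization between arrays are not given in the sources used here, and nothing was rescaled. Per the labels' protocols, RNA was made into biotinylated cDNA with the WT Plus protocol. Of 72688 features, 65956 had values, and 33334 lay above their array's median on at least 3 arrays and were tested. Features were named through GEO's platform annotation, and symbols were updated by Entrez identifier.

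Groups were fitted over all features tested with limma 3.58.1 in R 4.3.3 (lmFit, eBayes with an intensity trend), two-sided, without a block, and p-values were adjusted by Benjamini-Hochberg over all of them. The fit was tested on simulated data. Members and lists were chosen with earlier results of these data known. Given in full were the 9 muscle members, other members with an unadjusted p under 0.05 or separated groups and a difference of at least 0.4, and the 3 others with the widest range. From each pathway list the text names members with an unadjusted p under 0.05 and the 3 others with the largest difference. After values were seen, Cul3, Lmod3, Neb and Acta1 were added for their roles, and the genes beside Klhl23, Klhl40, Klhl34 and Klhl18 for their positions. Tpm2, Tnnt3 and Nrap were added for signals near the top of the array. Python 3.11.15 with pandas 2.3.3 served for motifs, and matplotlib 3.10.9 for plots.

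The alternatives left out each array in turn, blocked on replicate number or on mouse-number range, weighted the arrays, dropped the filter or set it at the 75th percentile, ran eBayes robust or with no trend, averaged a gene's features, or rescaled the arrays by median centring or by quantiles, the last also with the range block. Same-numbered cKO and Control arrays correlated at 0.13, -0.20 and 0.21 in their deviations from group means.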

Additional observations from a re-analysis of the deposited data

How the results depend on the processing

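With 3 arrays a group, only large differences could pass over 33334 features, and 0 members passed an adjusted limma p of 0.05 in any of the 17 alternatives. The count at an unadjusted limma p under 0.05 was 3 and ran from 2 to 4 over the other settings and from 1 to 4 without each array in turn. It was 1 without cKO 2, where Klhl40 was left. It was 1 higher and 1 lower, instead of 2 and 1, after quantile normalization and after centring on array medians. The share of all features at that p also moved, from 2.68% with no filter to 12.8% with array weights. The member count was 4 with array weights, and 4 without Control 3, where the share was 9.43%. With the range block and with no trend the count was also 4, at shares of 6.01% and 5%. The replicate numbers pair the arrays by no label, and with the replicate block the count was 2 (Klhl23 and Klhl40). Klhl40, Klhl23, Klhl18, Klhl34, Klhl30, Klhl33 and Klhl21 kept their sign in all 17 alternatives. The other 7 members given in full did not, and the cause was not tested. After quantile normalization the median of the other members was -0.0509, Klhl41 0.0024 and Kbtbd12 -0.11. After centring on array medians the median of muscle members was -0.0301, that of the others -0.0269, Kbtbd12 -0.0301 and Klhl24 -0.0075. With array weights the median of the others was -0.0351, Klhl31 0.20, Klhl41 0.0206 and Kbtbd12 -0.0012. With quantile normalization and the range block the muscle median was -0.10, that of the others -0.0234, Klhl38 -0.0613, Kbtbd12 -0.10 and Klhl24 -0.0212. Without each array in turn, the muscle median ran from -0.13 to 0.17, that of the others from -0.0774 to 0.0821, Klhl31 from -0.85 to 0.12, Klhl38 from -0.15 to 0.86, Klhl41 from -0.13 to 0.17, Kbtbd12 from -0.0026 to 0.0726, Kbtbd13 from -0.38 to 0.0620, Kbtbd7 from -0.0113 to 0.55 and Klhl24 from -0.16 to 0.28.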
